A study of Mus musculus with 10 samples.

Results

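The libraries described here compared MLL-AF9-i139 cells with MLL-AF9-ieGFP cells after both had received doxycycline (DOX). Both are hematopoietic stem and progenitor cells (HSPCs) of the mouse, taken from C57BL/6 bone marrow and immortalized by a retrovirus that carries the MLL-AF9 fusion oncogene. All of them also carried the tetR-KRAB repressor and a DOX-inducible pCW lentivirus, which in MLL-AF9-i139 held miR-139 and in MLL-AF9-ieGFP held eGFP. Their medium held SCF, GM-CSF, IL-6 and IL-3, and clones were picked as colonies under puromycin. The members were 5 of the 10 libraries of the series, chosen by their labels: 3 MLL-AF9-i139 clones and 2 cultures of MLL-AF9-ieGFP, all with DOX at 5 µg/mL. Clones 1 and 2 had been treated for 48 h and clone 3 for 72 h. The MLL-AF9-ieGFP libraries were the 48 h and the 72 h culture of 1 clone, so the effect of the construct and the peculiarities of that clone cannot be told apart with DOX alone. The other 5 libraries, the same clones without DOX, were set beside them to show which differences were there before induction. No age of the untreated MLL-AF9-i139 cultures is given in the labels.

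MicroRNAs guide Argonaute proteins to messenger RNAs. Pairing between the 3′ UTR of the transcript and the seed, bases 2 to 8 of the microRNA, leads to decay of the transcript and to less translation. The Mir139 hairpin lies in an intron of Pde2a and gives a mature strand from each arm, and miR-139 is known as a tumor suppressor that is lost in several leukemias. MLL-AF9 cells resemble granulocyte-macrophage progenitors whose maturation is blocked, which is why genes of myeloid maturation, growth arrest and cell division were followed. The question of the comparison is which transcripts differ between cells that express miR-139 and cells that express an inert protein under the same drug. The mature strands of RefSeq (GRCm38.p6) are shown because every later statement on seed matches rests on them, with the seed in capitals. The 5p strand is at chr7:101475382-101475403 and the 3p strand at chr7:101475418-101475439, both on the plus strand.
miR-139-5p: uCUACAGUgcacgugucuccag
miR-139-3p: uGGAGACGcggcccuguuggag

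The total count was between 38024443 and 46134269 in the 5 libraries with DOX and between 35133308 and 47089725 in all 10, and values are given below as normalized CPM (counts scaled to the same library total, with TMM). A gene with 3 counts has 0.0637 to 0.0854 CPM, depending on the library. Mir139 had 0 counts in every library and Pde2a had 1, in clone 3 with DOX. A hairpin of 68 bases is too short to be counted well in this kind of library, so the induction of miR-139 cannot be checked from these counts. Of the surface markers of MLL-AF9 cells, the transcripts of c-Kit (Kit, 5142 to 6781 counts) and CD16/32 (Fcgr3, 3118 to 14919 counts, and Fcgr2b, 2109 to 7789 counts) were abundant. Ly6g of GR-1 had 42 to 67 counts and Itgam of CD11b 0 to 3 counts. Cd3e had 0 or 1 count. In a principal component analysis of 14685 genes the first component held 44.3% of the variance and set clones 1 and 2 with DOX (62.9 and 57.9) apart from the other libraries (-27.4 to -0.10), of which clone 3 with DOX was nearest to them at -0.10. Clone 3 was also the only MLL-AF9-i139 library at 72 h, and its clone and its time cannot be told apart.

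With DOX, MLL-AF9-i139 and MLL-AF9-ieGFP differed at an adjusted p under 0.05 in 599 of 20269 genes (2.96%, edgeR's quasi-likelihood test, Benjamini-Hochberg). The spread came from all 10 libraries in their 4 groups, and the p-values measure the spread between these libraries, of which those of MLL-AF9-ieGFP come from a single clone. Fitted on the 5 libraries with DOX alone, the test called 19 genes, and 7 of the 58 genes named by rule. Of the 599 genes, 341 were higher in MLL-AF9-i139 (1.68% of the genes tested) and 258 lower (1.27%). At least a 2-fold difference was seen for 212 of the higher genes (1.05%) and 51 of the lower ones (0.252%). The excess of higher genes was thus found among the large differences. In the untreated libraries of the same clones 9 genes passed the same test (0.0444%), 3 of them higher (0.0148%) and 6 lower (0.0296%). At an unadjusted p under 0.05 there were 503 genes without DOX (2.48%) and 4651 with DOX (22.9%). The 9 genes were also called with DOX, in the same direction.
The large differences with DOX had smaller medians without it. For the 212 higher genes the median log2 difference was 1.67 with DOX and 0.21 without, and 149 of them differed by less than 0.5 without DOX. For the 51 lower genes the medians were -1.71 and -0.45, and 26 differed by less than 0.5. Of all 20269 genes tested, 16019 differed by less than 0.5 without DOX. The untreated difference pointed the same way as the one with DOX in 158 of the 212 and in 41 of the 51, beside 58.6% of all genes tested. It was itself at least 2-fold in that direction in 31 and 16 genes. The untreated groups did not overlap in that direction in 77 of the 212 and 33 of the 51, beside 2166 of all 20269. All 599 called genes had groups that do not overlap with DOX, beside 37.0% of all genes tested.
The size of the differences varied between the clones. Against the MLL-AF9-ieGFP culture of the same time, the median log2 difference of the 212 higher genes was 1.86, 1.75 and 1.07 in clones 1, 2 and 3. For the 51 lower genes the medians were -1.61, -1.59 and -1.42. Clone 3 had the smallest difference of the 3 clones in 167 of the 212 higher and in 35 of the 51 lower genes, beside 10284 of all 20269 genes tested.
The count of called genes changed with every clone or culture left out, and rose without clone 3. With each left out in turn, together with its untreated library, it was 5089 without clone 3, 45 without clone 1, 31 without clone 2, 1 without the MLL-AF9-ieGFP culture of 48 h and 2 without that of 72 h. With the 48 h cultures alone with DOX it was 2662.

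**Figure D1:**
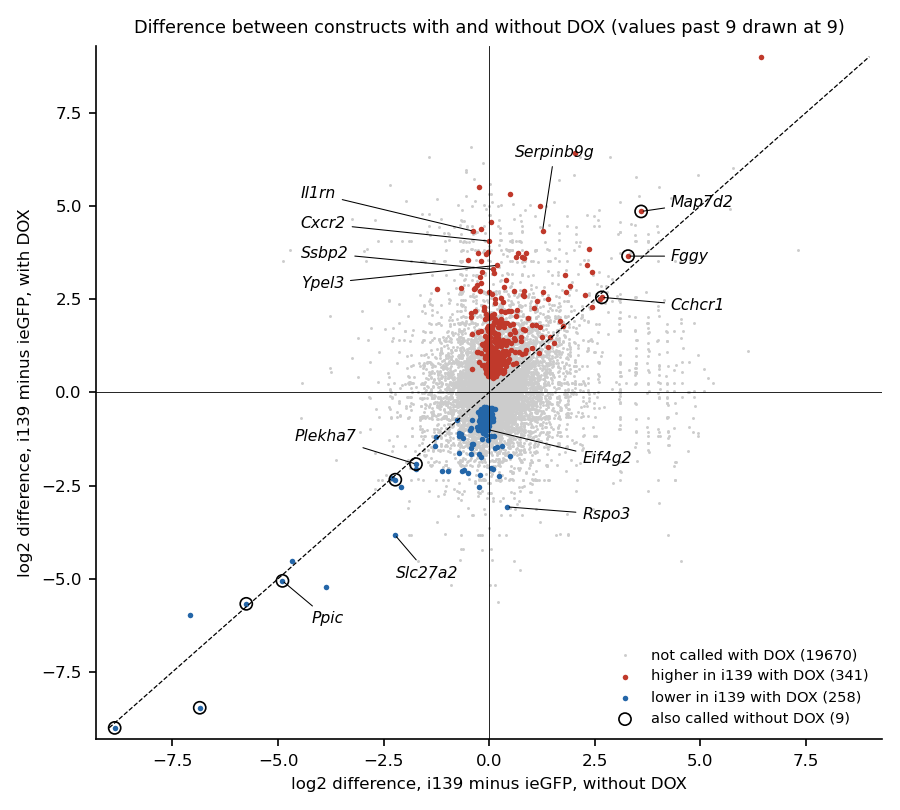
The log2 difference between MLL-AF9-i139 and MLL-AF9-ieGFP with DOX (vertical axis) against that without DOX (horizontal axis), 1 point per gene tested. Most of the 341 higher and 258 lower genes lie near 0 on the horizontal axis. The 9 circled genes, called in both, have the same sign in both, and the dashed line marks equal differences. Map7d2 (3.60 without DOX, 4.85 with it), Ighv8-10 (-6.85 and -8.46) and Gm18340 (-8.87 and -11.9) differed more with DOX. Values past 9 are drawn at 9.

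A first group of interest was the transcripts that miR-139-5p could pair with. Of 20 genes published as miR-139-5p targets in other tissues, 3 were lower and 0 higher by the test, beside 1.27% and 1.68% of all genes tested. The list had a median log2 difference of 0.01, beside 0.03 for all genes tested. The 3 were Eif4g2, Hnrnpf and Cxcr4, and each has a seed match in its longest annotated 3′ UTR. Of the 20 genes, 15 have such a match, and the differences of 7 of these were below 0 and of 8 above it.
The sites of these 3 genes are shown with that of Cdc6, a replication licensing factor, and that of Klhl23, a Kelch-like protein, which were also lower. Capitals mark the match, ACTGTAG opposite bases 2 to 8, followed in the 8-base form by the A opposite base 1. They were read from the GENCODE M21 transcripts on GRCm38, written in the sense of the gene. The sites lie at chr7:111072335-111072342 (Eif4g2, minus strand, exon 22 of 22), chr6:117925484-117925490 (Hnrnpf, plus strand), chr1:128588569-128588576 and chr1:128588561-128588568 (Cxcr4, minus strand, exon 2 of 2), chr11:98922864-98922871 (Cdc6, plus strand, exon 12 of 12) and chr2:69835811-69835818 (Klhl23, plus strand, exon 4 of 4).
Eif4g2: caacactgaatACTGTAGAgatgcactttg
Hnrnpf: acaatactaatACTGTAGgaattggtgag
Cxcr4, first site: ctgtgtgtaggACTGTAGAactgtagagga
Cxcr4, second site: aggactgtagaACTGTAGAggaagaaactg
Cdc6: cactgcagaagACTGTAGAgaggagattgg
Klhl23: ctgttgggaagACTGTAGAcgtacgatgtg
The 2 sites of Cxcr4 follow each other without a gap.

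Eif4g2 (ENSMUSG00000005610, chr7:111067750-111083030), a translation initiation factor related to eIF4G, had 540.2, 515 and 822 CPM in clones 1, 2 and 3 with DOX, and 1211 and 1289 CPM in MLL-AF9-ieGFP at 48 h and 72 h. The groups did not overlap, and without DOX the 5 libraries lay between 1217 and 1382 CPM. The log2 difference was -0.999 ± 0.172 with DOX (SE, adjusted p = 0.0256, edgeR) and -0.03 ± 0.17 without. Hnrnpf (chr6:117900324-117925622), a splicing regulator, had 152, 136 and 199.9 CPM against 299 and 324 CPM. Its log2 difference was -0.94 ± 0.15 (adjusted p = 0.0181, edgeR), and -0.09 ± 0.15 without DOX.
For Cxcr4 (chr1:128588199-128592293, minus strand), the chemokine receptor that holds hematopoietic cells in the marrow, the values were 115, 119 and 117 CPM against 166 and 150.2 CPM. Here the 3 clones were nearly equal and the difference small, at -0.43 ± 0.09 on the log2 scale (adjusted p = 0.0366, edgeR). The untreated difference was -0.13 ± 0.09. Hras, another published target, missed the threshold with a log2 difference of -0.62 (adjusted p = 0.052, edgeR).
Among genes with 8-base matches that were named after their values were seen, Gclc, which makes the precursor of glutathione, had 73.7, 71.7 and 98.4 CPM against 167 and 134 CPM. Prkx, a protein kinase with 2 such sites, had 5.30, 5.37 and 6.99 CPM against 9.79 and 10.7 CPM. The log2 difference of Hk2, a hexokinase of glycolysis, was -0.55 ± 0.11, and that of Bms1, a ribosome assembly factor, was -0.62 ± 0.11. Their untreated log2 differences lay between -0.13 and 0.02. Hivep3, also called lower and with an 8-base match, was as low before induction, at -0.75 with DOX and -0.77 without.

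Over the transcriptome, the classes of seed match differed little. The median log2 difference with DOX was 0.03 for 1810 genes with a match of 7 or 8 bases to miR-139-5p, 0.02 for the 611 with an 8-base match and 0.01 for 12216 genes with a match to neither strand. For the 540 genes with a match to miR-139-3p (CGTCTCC) it was 0.01. Without DOX the medians of the 4 classes, in the same order, were 0.029, 0.037, -0.00089 and 0.012. The medians of the interaction were -0.028, -0.044, -0.015 and -0.018. In the 8-base class 48.3% of genes were below 0 with DOX and 37.2% without, and among genes without a match 48.8% and 50.2%. Matches of ACTGTAG, searched on the sense strand of the longest annotated 3′ UTR, were found in 12.5% of the 14445 genes with one. Sites that pair only with bases 2 to 7 and have an A opposite base 1 (CTGTAGA for miR-139-5p) were not counted. Genes with only such a site are therefore among those without a match.
Called genes were distributed as follows. Of the 611 genes with an 8-base match to miR-139-5p, 17 were lower and 12 higher (2.78% and 1.96%), and of the 12216 genes without a match 205 were lower and 238 higher (1.68% and 1.95%). Genes with a match had longer 3′ UTRs, with a median of 2602 bases in the 8-base class against 914 bases without a match, and the part of length in these shares was not tested. Tgfbr2, with 1 match of 8 bases in a 3′ UTR of 6085 bases, and D1Ertd622e, with 9 matches, 1 of them of 8 bases, in an annotated 3′ UTR of 39397 bases, were higher with DOX. These figures describe the genes and were not tested.

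**Figure D2:**
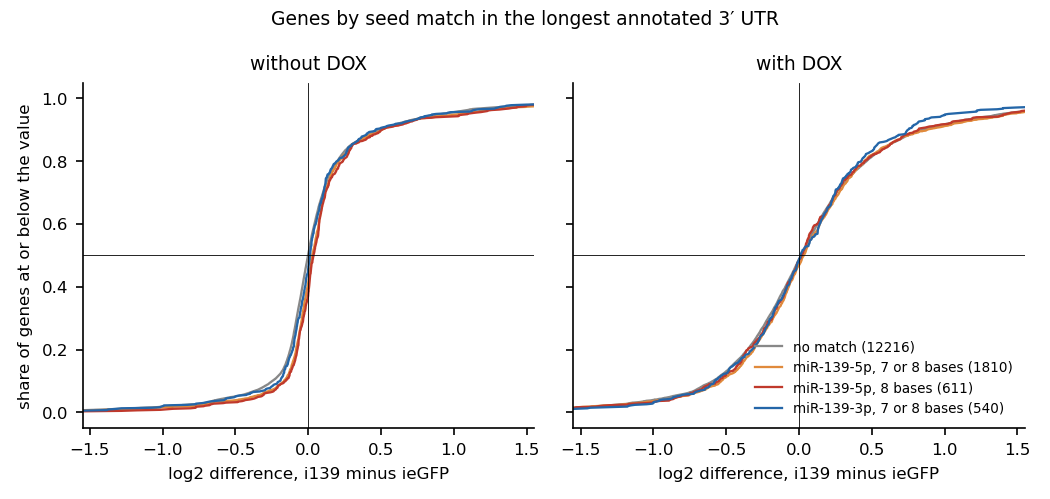
Cumulative share of genes (vertical axis) by log2 difference between MLL-AF9-i139 and MLL-AF9-ieGFP (horizontal axis), without DOX on the left and with DOX on the right, for 4 classes of seed match. With DOX the curves are broader than without it, and the 4 classes cross the median between 0.01 and 0.03.

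Hpgd and Ptprt, which the study follows as possible effectors of miR-139, looked different in the comparisons with and without DOX. The study found both lower in MLL-AF9-i139 clones with DOX than without, a different comparison, and reported luciferase assays of both as direct targets. In the longest annotated 3′ UTR, Hpgd had 0 matches to bases 2 to 8 of either strand, and Ptprt had 1, to miR-139-5p. Sites that pair only with bases 2 to 7 and have an A opposite base 1 were not part of these counts. So 0 matches does not mean that Hpgd has no site. Hpgd (chr8:56294585-56321043), which inactivates prostaglandins, had 163, 269 and 295 CPM with DOX in clones 1, 2 and 3 and 348 and 239 CPM in MLL-AF9-ieGFP, so that the groups overlapped. Without DOX the clones were above the control, at 437, 607 and 519.6 CPM against 345 and 316 CPM. The log2 difference was -0.28 ± 0.24 with DOX (adjusted p = 0.527, edgeR) and 0.66 ± 0.24 without it.
Ptprt (chr2:161521990-162661147), a receptor tyrosine phosphatase, had 3.70, 2.62 and 5.99 CPM against 4.57 and 3.07 CPM with DOX. Without DOX it had 8.22, 8.34 and 13.2 CPM against 3.81 and 4.70 CPM, with no overlap. Its log2 difference was 0.10 ± 0.35 with DOX (adjusted p = 0.901, edgeR) and 1.22 ± 0.36 without. The difference between the 2 comparisons was -0.93 ± 0.34 for Hpgd and -1.12 ± 0.49 for Ptprt. Neither passed the interaction test (adjusted p = 0.527 and 0.54), also with the clone or culture as a block (adjusted p = 0.0708 and 0.106, edgeR).

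Most of the clear differences that arose with DOX were higher levels. Of 176 genes with a symbol, at least a 2-fold called difference, an average log2 CPM of at least 1 and groups that do not overlap, 124 differed by less than 0.5 on the log2 scale without DOX. Of these, 113 were higher in MLL-AF9-i139 and 11 lower. The 8 highest were Il1rn, Cxcr2, Cyp4f18, Src, Ypel3, Ssbp2, Tgfbr2 and D1Ertd622e.
Il1rn (chr2:24336853-24351494), the secreted antagonist of the IL-1 receptor, had 154, 129.9 and 22.1 CPM in clones 1, 2 and 3 and 5.33 and 4.87 CPM in MLL-AF9-ieGFP. Without DOX the 5 libraries held 1.80 to 4.20 CPM. The log2 difference was 4.32 ± 0.71 with DOX (adjusted p = 0.0224, edgeR) and -0.38 ± 0.64 without. Cxcr2 (chr1:74153989-74161246), the receptor by which neutrophils follow CXC chemokines, had 41.6, 22.8 and 2.67 CPM against 1.40 and 1.28 CPM. Clone 3 was only slightly above the control, and the log2 difference was 4.06 ± 0.88 (adjusted p = 0.0381, edgeR). Cyp4f18, which hydroxylates leukotriene B4, and Src, a tyrosine kinase, had the same order of clones. Cyp4f18 had 10.3, 5.34 and 1.27 CPM against 0.510 and 0.326 CPM, and Src had 15.9, 8.19 and 1.40 CPM against 0.740 and 0.544 CPM. Ypel3, a Yippee-like protein linked to growth arrest, stood at 38.8, 36.1 and 4.57 CPM against 2.45 and 2.56 CPM.
The remaining 3 genes were more abundant in every library than these. Ssbp2 (chr13:91460283-91703429), a partner of the LDB1 transcription complex, had 578, 479 and 294 CPM against 51.1 and 40.6 CPM, and 28.6 to 38.6 CPM in the 5 untreated libraries. Its log2 difference was 3.30 ± 0.27 (adjusted p = 0.000582, edgeR). Against the culture of the same time it was 3.50, 3.23 and 2.85 in clones 1, 2 and 3. The gene 4833422C13Rik, which overlaps the end of Ssbp2 and was named after its values were seen, had 19.4, 13.9 and 8.33 CPM against 1.20 and 0.843 CPM. Tgfbr2, the ligand-binding receptor of TGF-β, had 302, 242 and 81.5 CPM against 19.6 and 25.8 CPM. D1Ertd622e had 246, 232 and 66.8 CPM against 27.9 and 24.2 CPM.

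**Figure D3:**
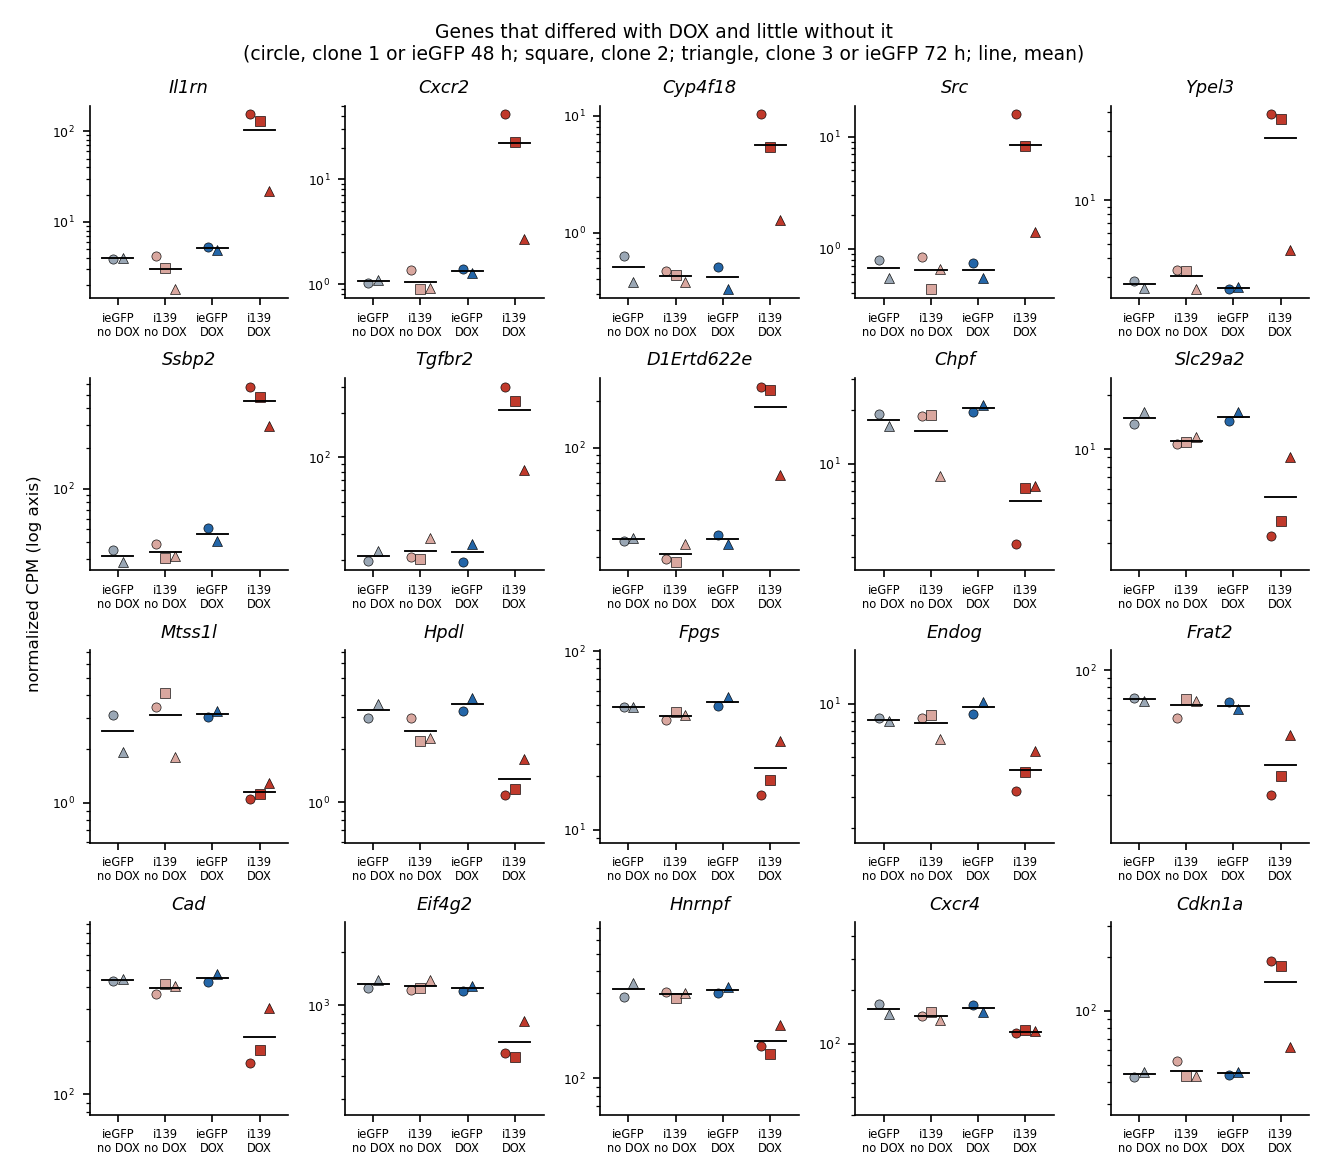
Normalized CPM on a log axis in each of the 10 libraries for 20 genes that differed with DOX and by less than 0.5 (log2) without it, with a line at each group mean. In the 8 genes from Il1rn to D1Ertd622e clone 3 (triangle) with DOX lies between the control and the other 2 clones, whereas in Cxcr4 the 3 clones lie together.

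A list of 8 genes of growth arrest and cell death had its highest levels in clones 1 and 2 with DOX. Of these genes 3 passed the test, beside 2.96% of all genes tested. Cdkn1a (p21, chr17:29090976-29100727), an inhibitor of cyclin-dependent kinases, had 191, 179 and 63.1 CPM against 43.5 and 45.8 CPM. The groups did not overlap, and the log2 difference was 1.69 ± 0.36 (adjusted p = 0.0376, edgeR). Zc3h12a, an endonuclease that degrades inflammatory mRNAs, had 58.8, 49.9 and 29.3 CPM against 19.4 and 19.6 CPM, a log2 difference of 1.24 ± 0.23 (adjusted p = 0.0275, edgeR), and Ypel3 was given above with a log2 difference of 3.40 ± 0.71 (adjusted p = 0.0345, edgeR).
The other 5 genes had adjusted p-values from 0.0538 to 0.121 (edgeR). Cdkn2d (p19) had 34.5, 37.2 and 15.1 CPM against 11.7 and 11.1 CPM, and Trp53inp1, a p53 cofactor in cell death, 66.6, 61.5 and 16.6 CPM against 13.0 and 12.2 CPM. Dusp1, a phosphatase of MAP kinases, had 14.5, 16.0 and 5.59 CPM against 3.04 and 3.35 CPM, and Bmf, a pro-apoptotic BH3-only protein, 12.7, 10.5 and 4.65 CPM against 3.44 and 3.59 CPM. Btg2, an antiproliferative protein, was the only one of the 8 with overlapping groups, since clone 3 had 6.83 CPM and the control 7.73 and 7.29 CPM. Without DOX the log2 differences of the 8 genes lay between -0.14 and 0.18. The list is the study's own choice from the same experiment, so its direction is not independent evidence.
In the wider families 1 member of each list passed, beside 2.96% of all genes tested. Of 7 CDK inhibitors only Cdkn1a was called, and the median of the list was -0.03. Of 20 p53 targets again only Cdkn1a passed (median 0.24), and the transcript of p53 itself, Trp53, had a log2 difference of -0.08 (adjusted p = 0.69, edgeR). In the BCL2 family 1 of 14 members passed (median 0.42). That was Bcl2a1a, an inhibitor of apoptosis, with 22.4, 21.9 and 18.4 CPM against 7.63 and 7.64 CPM. Its 3 clones were close to each other, with a log2 difference of 1.45 ± 0.18 (adjusted p = 0.00616, edgeR). It is 1 of several nearly identical copies between which the counting could split reads.

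Some myeloid maturation genes passed the test. Of 21 granulocyte genes, 3 were higher and 1 lower, beside 1.68% and 1.27% of all genes tested. The median of the list was 0.11 with DOX and -0.21 without. The higher ones were Il1rn, Cxcr2 and Csf3r, the receptor of G-CSF. Csf3r had 64.7, 77.5 and 70.6 CPM against 30.3 and 35.0 CPM, with clone 3 as high as the others (log2 difference 1.12 ± 0.17, adjusted p = 0.0167, edgeR).
S100a9, a calcium-binding protein of neutrophils, was lower at 67.1, 53.8 and 32.8 CPM against 98.5 and 136 CPM. It was as low without DOX, where its log2 difference was -1.27 ± 0.28 beside -1.19 ± 0.28 with DOX (adjusted p = 0.0478, edgeR). The difference between the comparisons was 0.08 ± 0.40 (adjusted p = 0.963, edgeR). In these bulk samples fewer cells of a type and less RNA per cell cannot be told apart.
Of 13 monocyte and macrophage genes 1 was higher and 1 lower, beside 1.68% and 1.27% of all genes tested (median 0.53). Lyz2, the lysozyme of macrophages and granulocytes, had 34.6, 29.1 and 13.9 CPM against 5.82 and 5.68 CPM (log2 difference 2.17 ± 0.36, adjusted p = 0.0224, edgeR). Apoe, a lipid carrier that macrophages secrete, had 7.64, 8.44 and 12.2 CPM against 16.6 and 18.7 CPM (log2 difference -0.90 ± 0.20, adjusted p = 0.0407, edgeR). None of 9 primary granule proteins was called (median 0.31), of which the myeloperoxidase gene Mpo had a log2 difference of 0.78 (adjusted p = 0.054, edgeR).
None of the 7 tested surface markers of MLL-AF9 cells passed, and 4 of them had under 100 counts in every library. Fcgr3 had 312, 269 and 99.2 CPM against 90.6 and 92.2 CPM (log2 difference 1.31 ± 0.36, adjusted p = 0.068, edgeR), and Kit 132, 136 and 165 CPM against 152 and 172 CPM.

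Among 23 cytokine receptors, 2 were higher and 0 lower, beside 1.68% and 1.27% of all genes tested (median 0.47 with DOX and 0.02 without). The 2 were Csf3r and Csf2rb2, the mouse β chain of the IL-3 receptor. Csf2rb2 had 122, 115 and 50.8 CPM against 36.0 and 40.1 CPM (log2 difference 1.33 ± 0.30, adjusted p = 0.042, edgeR). IL-3 was in the medium of all cultures. Csf2rb2 has a close paralog, Csf2rb, which had a log2 difference of 0.39 (adjusted p = 0.19, edgeR).
Lysosomal genes shared a direction. Of 23 members, 21 were above 0 and 2 below, beside 47.6% of all genes tested below 0. Higher values with no overlap between the groups were found in 14 (60.9% against 18.0% of all genes tested in that direction). The median was 0.59 with DOX and 0.03 without. Lamp2, a protein of the lysosomal membrane, passed the test and had 353, 379 and 259 CPM against 227 and 194 CPM (log2 difference 0.65 ± 0.15, adjusted p = 0.0442, edgeR). In clone 3 the median of the list was 0.08, against 0.64 and 0.74 in clones 1 and 2.
In the interferon response 2 of 23 genes were higher and 0 lower, beside 1.68% and 1.27% of all genes tested (median 0.47). Ddx58 (RIG-I), a sensor of foreign RNA, had 34.6, 39.3 and 21.6 CPM against 13.7 and 12.7 CPM (log2 difference 1.27 ± 0.23, adjusted p = 0.0274, edgeR). Zbp1, a sensor of Z-form nucleic acids, had 6.33, 6.92 and 1.30 CPM against 0.842 and 0.843 CPM, and in clone 3 its level was close to that of the untreated clones (1.21 to 1.27 CPM). None of 9 MHC class I genes passed (median 0.61).
Serpinb9g, an intracellular serine protease inhibitor, was the only 1 of 11 clade B serpins called, beside 2.96% of all genes tested. It had 26.9, 18.2 and 14.1 CPM against 0.969 and 0.979 CPM. Without DOX the values were 0.799, 0.410 and 0.380 CPM against 0.285 and 0.145 CPM, so that the control also had more with DOX. The log2 difference was 4.34 ± 0.41 with DOX (adjusted p = 0.00167, edgeR) and 1.26 ± 0.48 without.

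The genes of DNA replication were lower together and by small amounts. All 27 members tested had a log2 difference below 0 with DOX, beside 47.6% of all genes tested. The test called 4 of them lower and 0 higher, beside 1.27% and 1.68% of all genes tested. The groups did not overlap in 20 of the 27 (74.1% against 19.1% of all genes tested in that direction). The median was -0.39 with DOX and -0.04 without, and it was -0.52, -0.46 and -0.24 in clones 1, 2 and 3.
The 4 called genes act at the origin or the fork. Mcm10 had 70.0, 70.5 and 95.9 CPM against 125 and 127 CPM (log2 difference -0.68 ± 0.13, adjusted p = 0.0285, edgeR). Pold1, the catalytic subunit of polymerase δ, had 85.1, 94.9 and 112 CPM against 148 and 151 CPM. Mcm6 of the replicative helicase had 303, 301 and 380.1 CPM against 445 and 457 CPM. Cdc6 had 51.7, 57.8 and 71.7 CPM against 85.4 and 88.1 CPM, with the 5 untreated libraries between 83.3 and 88.4 CPM. In each of the 4 genes clone 3 was the nearest to the control.
Of 25 mitosis genes 2 were lower and 0 higher, beside 1.27% and 1.68% of all genes tested. A log2 difference below 0 was found in 22, beside 47.6% of all genes tested (median -0.28 with DOX and -0.06 without). Kif20a, a kinesin of cytokinesis, had 72.0, 77.9 and 75.2 CPM against 99.7 and 107 CPM, with no smaller difference in clone 3. Plk1, the polo-like kinase, had 96.6, 111 and 118 CPM against 148 and 148 CPM. Top2a and Mki67, which mark dividing cells, had log2 differences of -0.15 (adjusted p = 0.43, edgeR) and 0.11 (adjusted p = 0.49, edgeR).
Of the 11 genes that were at least 2-fold lower with DOX and differed by less than 0.5 without it, 8 were named. Cad, which catalyzes the opening steps of pyrimidine synthesis, had 149, 177 and 304 CPM against 424 and 473 CPM (log2 difference -1.09 ± 0.23, adjusted p = 0.0345, edgeR). Fpgs, which retains folates in the cell, had 15.6, 18.9 and 31.5 CPM against 49.2 and 55.0 CPM (log2 difference -1.24 ± 0.23, adjusted p = 0.0274, edgeR). The nucleoside transporter gene Slc29a2 had 3.26, 3.97 and 8.99 CPM against 14.3 and 16.1 CPM (log2 difference -1.50 ± 0.34, adjusted p = 0.0428, edgeR). In all 3, clone 3 lay between the other clones and the control. The untreated groups did not overlap in these 3 genes either, with log2 differences of -0.16 ± 0.23, -0.16 ± 0.23 and -0.43 ± 0.33.
Of the other 5, Chpf, which polymerizes chondroitin, had 3.57, 7.35 and 7.54 CPM against 19.5 and 21.5 CPM (log2 difference -1.74 ± 0.35, adjusted p = 0.0313, edgeR). Clone 3 had 8.59 CPM of it already without DOX, where the other untreated libraries had 16.3 to 19.0 CPM. The log2 differences were -1.44 ± 0.34 for Mtss1l, -1.39 ± 0.26 for Hpdl, -1.16 ± 0.23 for Endog, a mitochondrial endonuclease, and -1.10 ± 0.25 for Frat2, a binding partner of GSK3. Their adjusted p-values lay between 0.0274 and 0.0499 (edgeR).

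**Figure D4:**
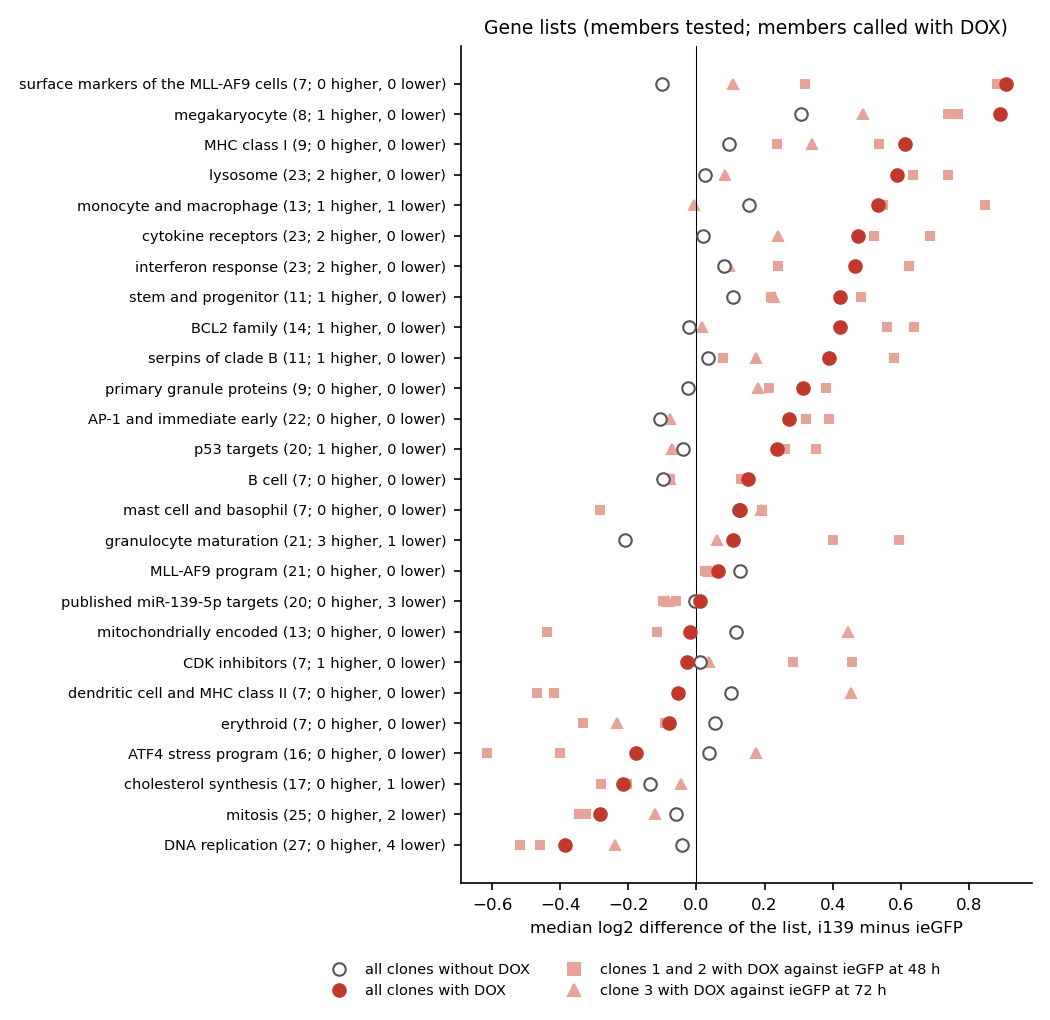
Median log2 difference between MLL-AF9-i139 and MLL-AF9-ieGFP over the members of each gene list (horizontal axis), with DOX (filled circles), without DOX (open circles) and for single clones with DOX against the control of the same time (squares and triangles). DNA replication and mitosis have medians of -0.39 and -0.28, and clone 3 is nearer to 0 than clones 1 and 2 in both.

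A second set of genes separated the clones before any DOX was given. The 9 genes called without DOX were Map7d2, Fggy and Cchcr1, higher in MLL-AF9-i139, and Ppic, Plekha7, Ptprcap, Ccdc90b, Ighv8-10 and Gm18340, lower. In each of them all 3 MLL-AF9-i139 clones stood on the same side of the 1 control clone, whether treated or not.
Ppic, the gene of cyclophilin C, had 34.8 and 34.6 CPM in MLL-AF9-ieGFP with DOX and 0.397, 0.865 and 1.91 CPM in the clones. Without DOX the values were 35.1 and 34.1 CPM against 0.369, 1.35 and 1.83 CPM, each clone keeping its own level. The log2 difference was -5.06 ± 0.57 with DOX and -4.89 ± 0.56 without (adjusted p = 0.00365 and 0.00867, edgeR). Plekha7, a protein of adherens junctions, had 9.90, 8.62 and 16.7 CPM against 43.4 and 45.7 CPM, and 11.6 to 14.6 CPM against 44.0 and 45.2 CPM without DOX. Ptprcap, whose product binds CD45, had 3.45, 3.03 and 4.57 CPM against 18.1 and 19.3 CPM, but its body lies wholly inside another gene and its counts may not be its own. Galm, which interconverts the anomers of galactose, missed the threshold without DOX and had the same log2 difference in both comparisons, -2.29 ± 0.38 with DOX and -2.30 ± 0.38 without.
Some of these genes are neighbors in the genome. Hook1 (chr4:95967240-96025413), a linker between dynein and its cargo, and Fggy (chr4:95557507-95926939), a carbohydrate kinase, lie side by side. Hook1 had 106, 284 and 655 counts in clones 1, 2 and 3 with DOX and 0 in both control libraries, at least 216-fold higher against a floor of 3 counts over the control group. It had 85, 358 and 651 counts without DOX, so that each clone kept its level. Fggy had 7.18, 4.25 and 5.05 CPM against 0.408 and 0.462 CPM with DOX, and 7.89, 4.90 and 5.32 CPM against 0.570 and 0.667 CPM without. The order of the clones differed between the neighbors, since Hook1 was lowest and Fggy highest in clone 1. Cchcr1 (chr17:35517100-35531015) and its neighbor Tcf19 (chr17:35512734-35516824) had log2 differences of 2.55 ± 0.29 and 2.51 ± 0.54 with DOX and of 2.67 ± 0.29 and 2.62 ± 0.55 without. Tcf19 and the gene Ighv1-64 given next were named after their values were seen.
Ccdc90b had 1, 0 and 1 counts in the clones with DOX against 46 and 27, and 1, 1 and 0 against 55 and 25 without it.
At the immunoglobulin heavy chain locus, transcripts of 3 neighboring genes were found in the control clone and hardly in the others. Gm18340 (chr12:115526351-115526959) had 0 counts in all 6 MLL-AF9-i139 libraries, 479 and 374 counts in MLL-AF9-ieGFP with DOX and 42 and 66 without. With DOX that is at least 459-fold lower in MLL-AF9-i139, against a floor of 3 counts over the group. Ighv8-10 had 0, 1 and 0 counts against 143 and 149, and Ighv1-64 0, 0 and 1 against 25 and 27. In the control clone Gm18340 was also higher with DOX than without, at 12.2 and 10.2 CPM against 0.921 and 1.91 CPM. Ighm, the μ constant region, was called with DOX only, at 4.85, 1.53 and 4.34 CPM against 12.3 and 18.6 CPM. The untreated clones had 7.93 to 10.7 CPM of it against 14.6 and 24.5 CPM.
In another 4 genes the groups were apart without DOX and the values farther apart with it, but the interaction passed in none of them. Map7d2, a microtubule-binding protein, had 3.24, 2.96 and 3.47 CPM without DOX and 9.86, 6.43 and 6.76 CPM with it, while the control stayed between 0.230 and 0.299 CPM in all 4 libraries. Gpc1, a heparan sulfate proteoglycan with 47.7% of its length inside other genes, had 4.73, 5.43 and 9.46 CPM against 1.56 and 0.957 CPM without DOX and 17.6, 19.0 and 19.7 CPM against 1.63 and 0.952 CPM with it. Slc27a2, which imports and activates fatty acids, had 2.79, 0.980 and 1.01 CPM against 6.12 and 8.97 CPM without DOX, and 0.647, 0.407 and 0.762 CPM against 6.12 and 11.2 CPM with it. Klhl23, which has the site shown above, had a log2 difference of -2.11 ± 0.34 with DOX and -0.97 ± 0.33 without. The adjusted p of the interaction was 0.527 for Map7d2 and Gpc1 and 0.532 for Slc27a2 and Klhl23 (edgeR). With the clone or culture as a block it was 0.174 for Map7d2, 0.0851 for Gpc1, 0.108 for Slc27a2 and 0.185 for Klhl23 (edgeR).

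**Figure D5:**
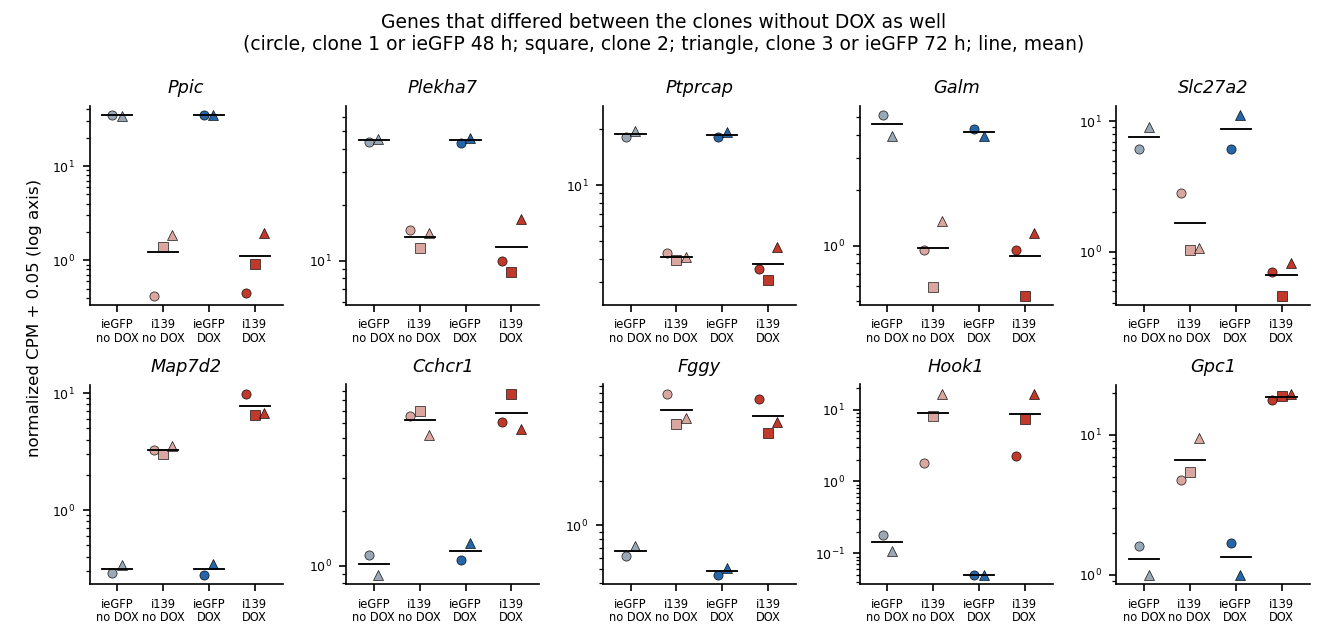
Normalized CPM plus 0.05 on a log axis in each of the 10 libraries for 10 genes that separated the clones without DOX, with a line at each group mean. The 4 MLL-AF9-ieGFP libraries lie together and apart from the 6 MLL-AF9-i139 libraries, and in Map7d2, Gpc1 and Slc27a2 they lie farther apart with DOX than without.

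Whether the difference with DOX departs from the one without it was tested directly as an interaction in all 10 libraries. One gene, Ssbp2, passed (0.00493% of the genes tested), with a log2 value of 3.22 ± 0.34 (adjusted p = 0.0322, edgeR), and 9.17% of the genes, 1859, were under 0.05 unadjusted. DESeq2 called 82 genes. The same test with the clone or culture as a block, which compares each clone with itself, called 38 genes (0.187%), 33 with a positive (0.163%) and 5 with a negative value (0.0247%), and 18.9%, 3823 genes, were under 0.05 unadjusted.
Of these 38 genes, 25 were also called in the comparison with DOX. Their median log2 difference was 1.64 with DOX and -0.08 without. In the blocked fit Ssbp2 had 3.17 ± 0.20 (adjusted p = 0.000455, edgeR), Il1rn 4.50 ± 0.41 (adjusted p = 0.00443), Serpinb9g 3.09 ± 0.42 (adjusted p = 0.0293) and Eif4g2 -0.998 ± 0.148 (adjusted p = 0.0346). Rspo3, a potentiator of Wnt signals named after its values were seen, had the lowest blocked value at -3.51 ± 0.50 (adjusted p = 0.0303, edgeR). It has 1 match of 8 bases to miR-139-5p, and it had 6, 1 and 4 counts in the clones with DOX, 34 and 23 counts in the control, and 31 to 74 counts in the 5 untreated libraries. Without the block Il1rn, Serpinb9g and Eif4g2 had an adjusted p of 0.527 in the interaction.

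Several programs gave no called member with DOX. None of 21 genes of the MLL-AF9 program passed (median 0.06), with log2 differences of -0.15 for Hoxa9, which has an 8-base match to miR-139-5p (adjusted p = 0.58, edgeR) and 0.12 for Meis1 (adjusted p = 0.61, edgeR). Myc had -0.58 (adjusted p = 0.056, edgeR). The same held for 22 AP-1 and immediate early genes (median 0.27), 16 genes of the ATF4 stress program (median -0.18) and 13 mitochondrially encoded genes (median -0.02). Of 11 stem and progenitor genes 1 passed, beside 2.96% of all genes tested. It was Ly6a (Sca-1), with 4.26, 4.45 and 3.25 CPM against 1.33 and 1.60 CPM.
Most markers of other blood cells were scarce. Under 100 counts in every library were found for all 11 B cell markers, 11 of 12 T and NK cell markers, 9 of 10 eosinophil markers, 13 of 15 erythroid, 10 of 14 mast cell and basophil, 8 of 11 dendritic cell and MHC class II, and 10 of 12 megakaryocyte markers. The most abundant exceptions were Tfrc, the transferrin receptor (11938 to 28763 counts), Slc18a2, a monoamine transporter of mast cells and basophils (1311 to 2332 counts), and Mcpt8, a basophil protease (338 to 656 counts). Cd2 and Gzmb had 0 counts, and the globins Hbb-bs and Hbb-bt 0. No tested member of the first 6 of these lists was called. Of 8 tested megakaryocyte genes only Gp9 was called, beside 2.96% of all genes tested. It had 30, 32 and 25 counts against 0 and 2, while Pf4 had at most 1 count and Ppbp 0.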

How the data were processed

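The authors isolated total RNA, depleted ribosomal RNA (KAPA RNA HyperPrep with RiboErase) and sequenced it on a NovaSeq. Per the labels and the study's methods, reads were aligned to GRCm38 with STAR 2.5.3e and counted on GENCODE M15 with featureCounts 1.6.0, and the authors deposited the raw counts per gene of 52550 genes. Whether counting used strand is not given in the sources used here. The table also holds 14 columns of other samples, which were not used.
Genes with a total count of at least 10 over the 10 libraries were kept. edgeR 4.0.16 (TMM, quasi-likelihood F test) was fitted once to 4 groups, and 3 contrasts were taken: with DOX, without DOX, and their difference (interaction). P-values were adjusted over all genes tested. CPM of single clones took a pseudocount of 0.05. In simulated counts with 200 changed genes, the comparison with DOX recovered 75% of 2-fold and 100% of 4-fold changes over 19910 genes, with 6.91% false among the called. The interaction recovered 40% and 96%, with 6.85% false. The simulated spread was equal in all libraries and held no clone differences, so these shares need not hold for the real libraries. Equal numbers with and without DOX mark the same clone or culture per the labels. Their deviations from the group means correlated at 0.554, 0.432 and 0.557 for the clones and 0.358 for the control, so a block was tried.
Named genes were those the study names, the 8 highest and 8 lowest called genes (average log2 CPM of at least 1, 2-fold, groups apart, with a gene symbol), the same among genes under 0.5 without DOX, genes of the interaction, and up to 4 called members of each of 31 lists. The members and lists were chosen with earlier results of these data known. Alternatives were DESeq2 1.42.0, RLE size factors, 3 other count filters, single replicates left out, the 48 h cultures alone, time and a replicate block. The 48 h setting left out clone 3 and the 72 h control, and its untreated MLL-AF9-i139 cultures have no stated time. Seed matches used the GENCODE M21 annotation of GRCm38. Some genes are not reported here.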

Additional observations from a re-analysis of the deposited data

Results flagged for a closer look

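One result stood out because the effect of the construct differed between cultures with and without DOX by a test of that difference. The log2 difference of Ssbp2 between MLL-AF9-i139 and MLL-AF9-ieGFP was 3.30 ± 0.27 with DOX and 0.08 ± 0.24 without it, and the interaction was 3.22 ± 0.34 (adjusted p = 0.0322, edgeR's quasi-likelihood test). All 3 clones with DOX (294 to 578 CPM) were above both control libraries (40.6 and 51.1 CPM). With single clones or control cultures left out, treated and untreated together, the interaction stayed between 3.11 and 3.44. It passed without clone 3 (adjusted p = 9.78e-06, edgeR) and lost the call without any other. The adjusted p was 0.108 without clone 1, 0.901 without clone 2, and 0.949 and 0.938 without the control of 48 h and of 72 h (edgeR). With the filters of at least 10 counts in 2 libraries and of filterByExpr it was 0.0696 and 0.0781 (edgeR). No group has more than 3 libraries, so no group was searched for a single library far from the rest.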

How the results depend on the processing

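The number of genes called between MLL-AF9-i139 and MLL-AF9-ieGFP with DOX, 599, was 2316 by DESeq2, 1916 with at least 1 count and 2662 in the 48 h cultures alone, and it was 116 with time as a covariate and 19 in the 5 DOX libraries alone. Leaving out single clones or control cultures, treated and untreated together, moved it between 1 and 5089, where a lone control library was assumed to vary like the other groups. Without DOX the 9 genes became 45 by DESeq2 and 37 with at least 1 count, and 10, 6 and 30 without clones 1, 2 and 3. None passed without the control of 48 h or that of 72 h by edgeR (512 and 290 genes at an unadjusted p under 0.05). The genes called in both comparisons, 9, were 41 by DESeq2 and 36 with at least 1 count, and 10, 6 and 28 without clones 1, 2 and 3. The interaction, 1 gene, had 82, 71 and 517, and 0 with either stricter filter by edgeR (1629 and 1625 at an unadjusted p under 0.05). Without single clones or cultures it lay between 0 and 2011. Of 58 named genes 51 were called, 7 in the 5 DOX libraries alone, 17 with time and 0 to 56 without single clones or cultures. With the replicate block the interaction called 38 genes and 5 of 380 list members, against 0 without it. The same block over the 5 DOX libraries called 6234 genes, but there the numbers join different clones. The median of genes with a seed match, 0.032, was 0.018 for 8-base matches alone and 0.016 above a log2 CPM of 1. Without single clones or cultures Hpgd lay between -0.52 and 0.012, reversed without the control of 48 h. Ptprt lay between -0.26 and 0.41 and reversed to -0.26 without clone 3, -0.15 without the control of 72 h, -0.53 at 48 h alone and -0.26 with the replicate block. No other named gene reversed. RLE size factors changed no call of a named gene. The cause of these shifts was not tested. Of the 599 genes, 582 were also called by DESeq2. Genes under 3 counts per library, 0.0637 to 0.0854 CPM, cannot be told from absent ones.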
